A study of Mus musculus with 12 samples.

Results

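Rhox6 and Rhox9 are homeobox genes of the reproductive homeobox cluster on the X chromosome, and their levels were followed across 4 mouse lines of induced pluripotent stem (iPS) cells, made by turning body cells back to the state of the early embryo. The genes were chosen as Rhox5, Rhox6 and Rhox9 with the values of these arrays in view, so their own levels are described without a test. The array annotation assigned 1 probe set each to Rhox6 (10599296) and Rhox9 (10604154), of 28939 probe sets in all, and 0 probe sets that the family members share. Rhox5 had 0 probe sets under its own name and was not analysed here. The 2 genes measured thus stand for 2 of the 3 genes asked for and for 2 of the 8 Rhox genes measured, among 19939 genes.

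All 4 lines were made from embryonic fibroblasts of C57BL/6J mice with 3 reprogramming factors, and all were grown in embryonic stem cell medium. LiPS-45 and LiPS-57 were labelled competent in tetraploid embryo complementation, in which the fetus is built from the injected stem cells, whereas LiPS-47 and LiPS-50 were not. Each line was measured in 3 cultures described as biological repeats, with 1 array each, 12 arrays in all. Each line is a single line, and the sources used here give neither the identity of the factors nor the sex nor any feeder cells. The question of competence, which the series asked, rests on 2 lines against 2 lines.

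Rhox genes encode homeodomain transcription factors expressed mainly in the testis, the ovary, the placenta and other extraembryonic tissues. In the mouse, the cluster is a textbook case of long-range silencing by DNA methylation: several of its genes are active in the extraembryonic lineages and methylated in the embryo proper. Rhox6 and Rhox9 are close relatives of each other, known also as Psx1 and Psx2, and are expressed in the placenta and in germ cells of the gonad. Embryonic stem cells that lack DNA methyltransferases express several Rhox genes. Many germ line genes are held silent in somatic cells in a related way, through methylated CpG-rich promoters or through repressors of the E2F6 and MGA/MAX families, which read the DNA motifs TCCCGC and CACGTG.

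Upstream sequences of 3 genes are shown because these genes accompany Rhox6 and Rhox9 in the results. Hormad1 codes for a protein of the meiotic chromosome axis, Hsf2bp for a meiotic recombination factor, and Gm9 is the measured gene next to the cluster. The promoter table from RefSeq (GRCm38.p6) was read for the 250 bases before the transcription start, 5′ to 3′ on the strand of the gene. Capitals mark TCCCGC or its complement GCGGGA, and the palindrome CACGTG. The intervals are chr3:95559427-95559676 on the plus strand for Hormad1, chr17:32034509-32034758 on the minus strand for Hsf2bp and chrX:37211042-37211291 on the minus strand for Gm9.
Hormad1: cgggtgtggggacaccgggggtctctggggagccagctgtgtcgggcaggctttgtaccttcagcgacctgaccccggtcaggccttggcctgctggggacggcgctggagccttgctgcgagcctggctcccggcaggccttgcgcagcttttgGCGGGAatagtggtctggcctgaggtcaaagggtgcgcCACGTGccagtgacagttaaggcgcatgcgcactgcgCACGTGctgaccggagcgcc
Hsf2bp: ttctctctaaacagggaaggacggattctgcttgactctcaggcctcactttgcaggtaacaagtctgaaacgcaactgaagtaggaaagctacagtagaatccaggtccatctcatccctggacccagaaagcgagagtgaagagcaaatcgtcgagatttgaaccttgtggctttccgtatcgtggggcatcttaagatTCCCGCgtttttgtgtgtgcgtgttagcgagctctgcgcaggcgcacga
Gm9: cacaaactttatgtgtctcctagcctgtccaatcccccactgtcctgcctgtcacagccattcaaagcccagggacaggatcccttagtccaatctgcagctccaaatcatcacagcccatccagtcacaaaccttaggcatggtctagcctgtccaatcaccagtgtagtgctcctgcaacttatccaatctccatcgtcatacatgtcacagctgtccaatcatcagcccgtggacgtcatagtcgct
The Hormad1 stretch holds 19 CpG dinucleotides and both motifs, the Hsf2bp stretch 14 and TCCCGC, and the Gm9 stretch 4 and no match. Over all 32851 promoters of this length, searched on both strands, the median was 6 CpG, 16.9% held TCCCGC and 6.0% held CACGTG. The motifs and the genes shown were picked after the values were known. No upstream sequence was at hand for Rhox6 or Rhox9, so none is shown or searched.

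Rhox9 was brightest in all 3 cultures of LiPS-50. Its probe set intensity, on the linear scale as deposited, was 297.0, 440.6 and 361.0 in LiPS-50, against 61.49, 63.35 and 59.26 in LiPS-45. It was 106.6, 128.8 and 86.49 in LiPS-57 and 72.93, 79.99 and 75.98 in LiPS-47. No culture of one line overlapped with a culture of another, and the order of the lines was LiPS-45, LiPS-47, LiPS-57 and LiPS-50. After the transform to log2(value + 1), on which all differences below are given and which understates the change of dim genes, the line means were 5.96 ± 0.0474, 6.27 ± 0.0659, 6.74 ± 0.285 and 8.50 ± 0.284 (SD, n = 3) in that order. The cultures of LiPS-57 and LiPS-50 varied among themselves more than those of the other lines.

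Rhox6 followed the same order with smaller steps. Its intensity was 437.4, 375.9 and 382.4 in LiPS-50 and 143.1, 119.2 and 138.1 in LiPS-45. It was 224.0, 183.6 and 160.4 in LiPS-57 and 148.5, 161.6 and 185.1 in LiPS-47. LiPS-50 lay above every other culture, and LiPS-57 and LiPS-47 overlapped. The log2 means were 7.07 ± 0.139 in LiPS-45, 7.37 ± 0.160 in LiPS-47, 7.56 ± 0.241 in LiPS-57 and 8.64 ± 0.119 in LiPS-50 (SD, n = 3). The LiPS-57 and LiPS-47 means differed by 0.19, which is 0.924 times their pooled SD, so these neighbours in the order did not differ beyond their spread.

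**Figure D1:**
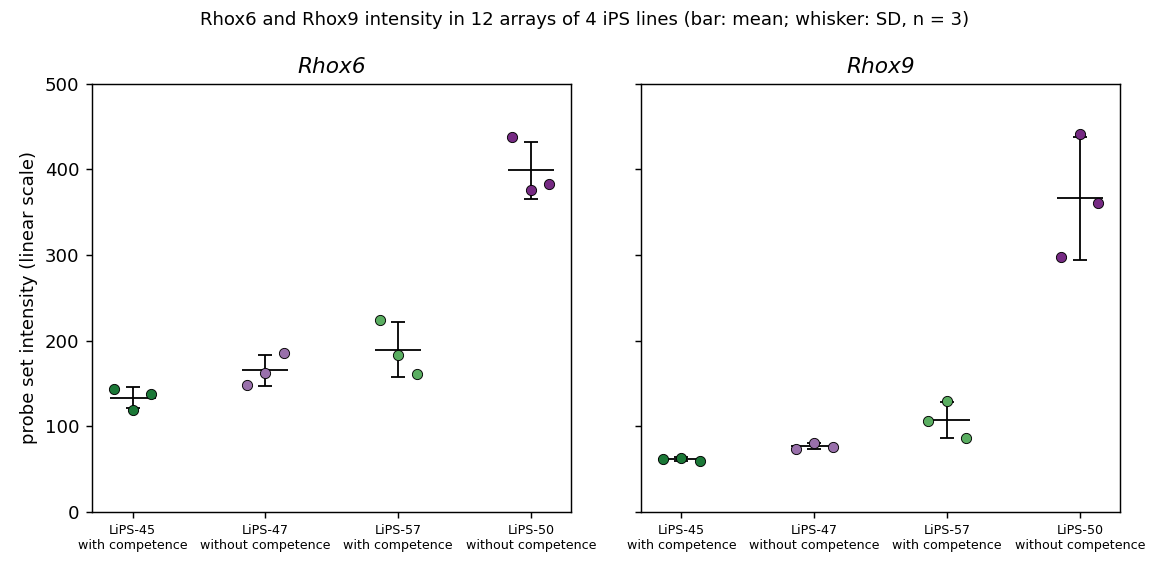
Probe set intensity of Rhox6 and Rhox9 on the linear scale in each of the 12 arrays, by line. Points are single cultures, the bar is the mean and the whisker the SD (n = 3). The LiPS-50 cultures lie between 375.9 and 437.4 for Rhox6 and between 297.0 and 440.6 for Rhox9, above all others.

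For Rhox9 the difference of means was 2.54 (SE 0.145) between LiPS-50 and LiPS-45, which is 5.82-fold. It was 1.76 against LiPS-57 (3.39-fold) and 2.23 against LiPS-47 (4.69-fold). For Rhox6 the differences were 1.57 (SE 0.124; 2.98-fold), 1.08 (2.11-fold) and 1.27 (2.41-fold) in the same order. These 3 comparisons share the LiPS-50 arrays, so they are not independent of each other. All LiPS-50 cultures lay above all cultures of the other line in 17.8% of the genes against LiPS-45, in 17.4% against LiPS-57 and in 16.3% against LiPS-47. By size, Rhox9 ranked 3, 10 and 3 among all 19939 genes in these comparisons, and Rhox6 ranked 15, 35 and 26. Since the genes were proposed for this pattern, the ranks describe the choice and support nothing.

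Among the 3 lines other than LiPS-50 the steps were smaller. LiPS-57 exceeded LiPS-45 by 0.78 for Rhox9 (1.72-fold) and by 0.49 for Rhox6 (1.41-fold), without overlap of their cultures, as did 7.55% of the genes. LiPS-47 exceeded LiPS-45 by 0.31 for Rhox9 (1.24-fold) and by 0.30 for Rhox6 (1.23-fold), again without overlap, as did 7.42% of the genes. Between LiPS-57 and LiPS-47 the Rhox9 difference was 0.47 (1.38-fold) without overlap, as in 6.15% of the genes. The cultures of the 2 competent lines were thus apart in both genes, and the mean of LiPS-47, which lacks competence, lay between theirs.

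Grouped by competence, the competent lines had a mean of 7.31 for Rhox6 and 6.35 for Rhox9, and the other lines 8.004 and 7.39. The difference, competent minus not competent, was -0.69 (SE 0.276) for Rhox6 and -1.04 (SE 0.460) for Rhox9, with the line as a random block in limma. The block used a consensus correlation of 0.183 shared by all probe sets. LiPS-50 and LiPS-47, both without competence, differed by more, at 1.27 for Rhox6 and 2.23 for Rhox9. These SEs thus understate the spread between lines in both genes and cannot show a difference by competence. LiPS-47 on its own lay close to the competent mean, at 7.37 for Rhox6 and 6.27 for Rhox9. With this block 0 of 28939 probe sets passed an adjusted p of 0.05 (limma, Benjamini-Hochberg), which is 0% of all, while 2226 (7.69%) had an unadjusted p under 0.05. With the spread between cultures as the error, 1789 passed. That fit treats the cultures of single lines as replicates of competence, so its count cannot show a difference by competence either.

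Over the 12 arrays the log2 values of Rhox6 and Rhox9 had a Pearson r of 0.956, and 0.782 over the 9 arrays without LiPS-50. The points share their line, and once each line's mean was removed r was -0.0204. In LiPS-50, Rhox6 was highest in culture 1 and Rhox9 in culture 2. In LiPS-57 likewise, Rhox6 was highest in culture 1 and Rhox9 in culture 2. The likeness of the 2 genes was thus seen between lines. Both genes were chosen with these values in view, so the likeness between lines describes the choice and supports nothing. With so few cultures per line, the r of -0.0204 cannot show that likeness within a line is absent. Whether the probes of one gene also bind the transcript of its paralogue was not tested.

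Of the 6 other Rhox genes measured (Rhox1, Rhox8, Rhox10, Rhox11, Rhox12 and Rhox13), 0 were called against LiPS-45, LiPS-57 or LiPS-47 at an adjusted p under 0.05 (limma over all probe sets), beside 18.7%, 17.9% and 18.3% of all genes in either direction, and 2, 1 and 0 had an unadjusted p under 0.05. Their median differences were 0.098, 0.078 and 0.048, beside 0.013, 0.0069 and -0.0083 over all genes. Only Rhox1 had a mean above the 40th percentile of probe sets (5.21), so the other 5 were dim on these arrays. Rhox1 had intensities of 67.76, 84.08 and 64.62 in LiPS-50, 64.66, 51.53 and 61.31 in LiPS-45, 64.23, 53.4 and 62.88 in LiPS-47 and 63.51, 49.62 and 52.87 in LiPS-57. All LiPS-50 values except the lowest exceeded every other culture. Its difference was 0.28, 0.38 and 0.25 against LiPS-45, LiPS-57 and LiPS-47, with adjusted p of 0.167, 0.065 and 0.224. Against LiPS-57 it passed when dim probe sets were removed (adjusted p 0.0384) or when culture 1 of LiPS-57 was left out (0.0378). Rhox8, made in Sertoli and granulosa cells, lay 0.21, 0.081 and 0.21 below these lines with adjusted p of 0.173, 0.685 and 0.19.

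Most genes on either side of the cluster were higher in LiPS-50. In counts of genes here and below, rose and fell stand for calls at an adjusted p under 0.05 (limma). Of the 10 measured genes on each side, 20 in all, 14 rose against LiPS-45, 15 against LiPS-57 and 14 against LiPS-47, and 0 fell. In each comparison 17 of the 20 had a difference above 0, beside 52.9%, 51.7% and 47.9% of all genes. Over all genes, 9.59%, 9.32% and 9.84% were called higher in these comparisons. The median differences of the neighbours were 0.44, 0.47 and 0.49. In the 3 comparisons among the other lines 0 of the 20 were called, with 2, 2 and 3 at an unadjusted p under 0.05, beside 0.251%, 0.0502% and 0.150% of all genes called in either direction.

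The gene nearest to the cluster on one side, Gm9, had the largest difference of the 20. Its intensity was 101.6, 89.47 and 88.26 in LiPS-50, 28.29, 23.98 and 30.33 in LiPS-45, 28.17, 33.73 and 25.54 in LiPS-47 and 35.63, 32.8 and 30.39 in LiPS-57. The LiPS-50 cultures stood well apart, and LiPS-47 overlapped with both LiPS-45 and LiPS-57, which did not overlap with each other. It rose by 1.73, 1.47 and 1.65 against LiPS-45, LiPS-57 and LiPS-47, which is 3.31-, 2.77- and 3.14-fold (adjusted p 1.18e-06, 5.14e-06 and 1.64e-06, limma). The remaining called neighbours rose by less than 1 on the log2 scale.

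Among the others, Ndufa1, a subunit of respiratory complex I, rose by 0.72, 0.63 and 0.84 against LiPS-45, LiPS-57 and LiPS-47. Lamp2, a lysosomal membrane protein, rose by 0.64, 0.62 and 0.83. Gria3, a glutamate receptor subunit, rose by 0.67, 0.86 and 0.95. Zbtb33, which codes for the methyl-CpG binding protein Kaiso and borders the cluster on its other side, rose by 0.47, 0.54 and 0.38. Cul4b, a ubiquitin ligase scaffold, rose by 0.48, 0.61 and 0.49. Between the cluster's own Rhox genes, Btg1b and Btg1c were dim and were not called in any of the 3 comparisons, with differences from -0.14 to 0.19.

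**Figure D2:**
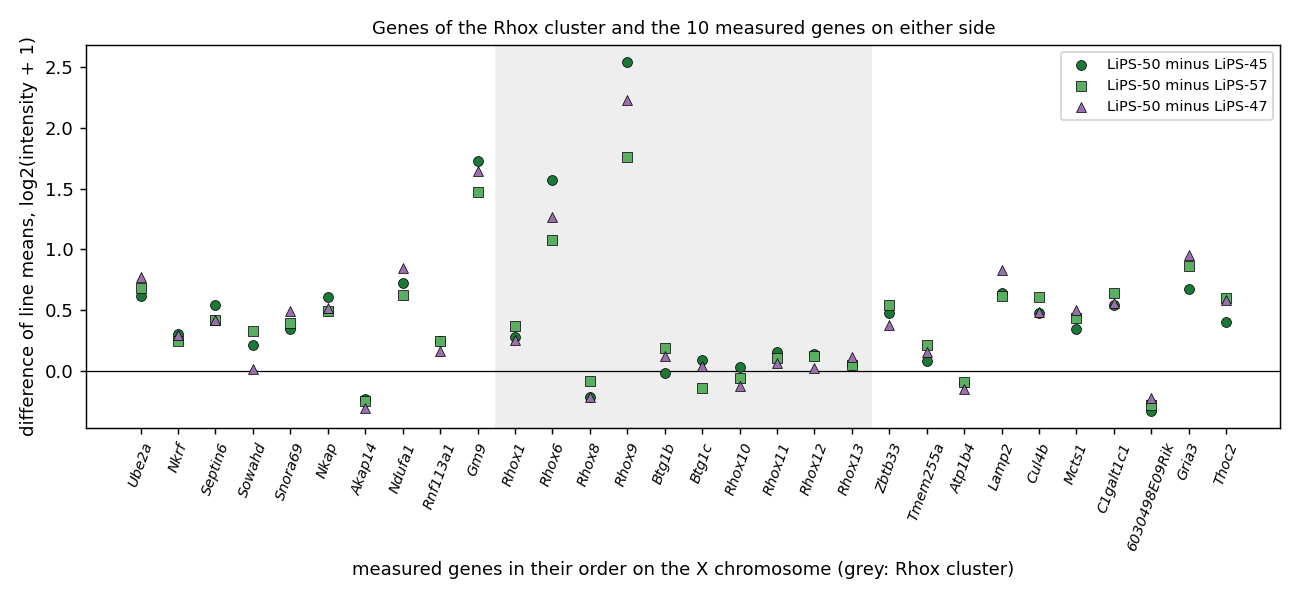
Difference of line means on the log2(intensity + 1) scale between LiPS-50 and each other line, for the measured genes of the Rhox cluster (grey) and the 10 on either side, in their order on the X chromosome. Rhox9, Gm9 and Rhox6 lie above 1 in all 3 comparisons, while the other Rhox genes lie between -0.21 and 0.38.

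Higher levels in LiPS-50 extended over the X chromosome. Of 731 X-linked genes outside the Rhox family, 262, 279 and 271 rose and 21, 12 and 17 fell against LiPS-45, LiPS-57 and LiPS-47. Of 19103 autosomal genes, 1646, 1572 and 1686 rose and 1789, 1698 and 1662 fell. Among the 410 X-linked genes with a mean above the 40th percentile, the median difference was 0.33, 0.37 and 0.38, or 1.26-, 1.29- and 1.30-fold. For 12504 autosomal genes above the same limit it was -0.0065, -0.010 and -0.015. The Rhox6 and Rhox9 differences exceeded this X-wide median in each comparison. Within the X chromosome Rhox9 ranked 3, 5 and 2 of 739 genes by size, and Rhox6 ranked 7, 14 and 9. Both genes were proposed for this pattern, so the excess over the X-wide median and these ranks also describe the choice and support nothing.

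Xist, the long RNA that coats an X chromosome being silenced, was highest in LiPS-50. Its intensity was 375.3, 281.0 and 302.7 there, against 94.66, 112.0 and 91.63 in LiPS-45, 89.36, 94.36 and 77.85 in LiPS-57 and 84.74, 79.87 and 59.02 in LiPS-47. It rose by 1.67, 1.86 and 2.09 against these lines (adjusted p 1.18e-05, 6.38e-06 and 1.85e-06, limma). Rlim, the ubiquitin ligase that activates Xist, rose by 0.37, 0.41 and 0.35. Tsx was called only against LiPS-57 (0.40, adjusted p 0.03). That call was lost without culture 1, 2 or 3 of LiPS-50 and without culture 1 or 2 of LiPS-57 (0.12 and 0.052). It was also lost with control probe sets included (0.0534). Against LiPS-47, Tsx passed with dim probe sets removed (adjusted p 0.0405) or without culture 3 of LiPS-47 (0.0224). Of the 4 measured genes of X inactivation 2, 3 and 2 were called, all higher, beside 9.59%, 9.32% and 9.84% of all genes called higher. In each comparison 3 of the 4 had a difference above 0. The other, Yy1, was lower in LiPS-50 and not called. Against LiPS-45 all 4 had an unadjusted p under 0.05. The part of these 4 genes in the Rhox levels was not tested.

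Enzymes that set DNA methylation were next compared, because they hold Rhox genes silent in the embryo. Of 13 genes of DNA methylation and demethylation, 2 rose and 3 fell against LiPS-45, 3 rose and 2 fell against LiPS-57, and 3 rose and 2 fell against LiPS-47, with medians of -0.080, -0.043 and -0.074. Over all genes, 9.59%, 9.32% and 9.84% were called higher and 9.10%, 8.59% and 8.44% lower. All 13 genes had a mean above the 40th percentile. Of 12504 autosomal genes above that limit, 1452, 1412 and 1528 rose and 1723, 1644 and 1581 fell, larger shares than over all genes. Dnmt3b, a de novo methyltransferase, fell by 0.70, 0.61 and 0.67 (adjusted p 1.64e-05, 6.19e-05 and 2.59e-05, limma). Dnmt3a, the other de novo methyltransferase, fell by 0.35, 0.43 and 0.42 (adjusted p 0.00122, 0.000332 and 0.000353). Their catalytically inactive partner Dnmt3l rose by 0.30 against LiPS-57 and by 0.22 against LiPS-47, the latter with adjusted p 0.0611 when these lines were fitted alone.

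The maintenance enzyme Dnmt1 differed by -0.067, -0.088 and -0.11 with adjusted p of 0.474, 0.343 and 0.203. Its recruiter Uhrf1 differed by -0.080, -0.043 and -0.074 with adjusted p of 0.37, 0.699 and 0.435. The related Uhrf2 fell by 0.38 against LiPS-45. Besides Zbtb33, the methyl-CpG binding protein gene Mbd2 rose by 0.32, 0.38 and 0.37, the first of which was lost under median centring (adjusted p 0.0666) and without culture 1 or 3 of LiPS-45 or any culture of LiPS-50 (0.0612 to 0.0949). The call against LiPS-47 was lost without culture 3 of that line (0.051).

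Chromatin repressors that act at germ line promoters were read in the same way. Of 21 genes, 1 rose and 7, 5 and 3 fell against LiPS-45, LiPS-57 and LiPS-47, with medians of -0.087, -0.074 and -0.10, beside 9.10%, 8.59% and 8.44% of all genes called lower. Against LiPS-45 the number called in either direction was 3 to 5 when any culture of LiPS-45 or culture 1 or 2 of LiPS-50 was left out. All 21 genes had a mean above the 40th percentile. Of 12504 autosomal genes above that limit, 1723, 1644 and 1581 fell against LiPS-45, LiPS-57 and LiPS-47, a larger share than over all genes. Setdb1, a histone H3 lysine methyltransferase, fell by 0.40, 0.40 and 0.36. Suv39h2, another such enzyme, fell by 0.42, 0.42 and 0.35. Ezh2, the catalytic subunit of Polycomb repressive complex 2, fell by 0.26, 0.28 and 0.28, and without culture 3 of LiPS-45 the first had adjusted p 0.0597. Trim28 and Ehmt1 fell too against LiPS-57, by 0.20 and 0.19. The gene that rose was Atrx, an X-linked chromatin remodeller, by 0.29, 0.53 and 0.47. Its call against LiPS-45 was lost under median centring (adjusted p 0.0882) and without any culture of LiPS-45 or without culture 1 or 2 of LiPS-50 (0.0535 to 0.112).

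Germ line genes known to be under promoter methylation were tested as a related class. Of 31 measured, 11, 10 and 10 rose and 0 fell against LiPS-45, LiPS-57 and LiPS-47, with medians of 0.21, 0.22 and 0.20, and 14 of the 31 had a mean above the 40th percentile. Of the 31 differences, 25, 26 and 25 were above 0, beside 52.9%, 51.7% and 47.9% of those of all genes. Over all genes, 9.59%, 9.32% and 9.84% were called higher. The counts depended on scaling: 6 rose against LiPS-45 with median centring or quantile normalization, and 5 against LiPS-47 with either. They also fell to 6 or 7 against LiPS-45 without any 1 of its cultures or without culture 1 or 3 of LiPS-50. Against LiPS-47 they fell to 5 without any 1 of its cultures and to 4 without culture 3 of LiPS-50. Hormad1 had intensities of 187.3, 156.2 and 192.3 in LiPS-50, 68.7, 64.78 and 64.5 in LiPS-45, 70.88, 67.43 and 80.77 in LiPS-57 and 58.39, 62.79 and 66.81 in LiPS-47. LiPS-50 stood above all other cultures, and the gene rose by 1.42, 1.28 and 1.49 (adjusted p 1.19e-06, 3.31e-06 and 9.87e-07, limma).

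Smc1b, the meiotic cohesin subunit, had intensities of 68.85, 43.79 and 53.54 in LiPS-50, 16.76, 15.61 and 15.95 in LiPS-45, 17.42, 25.1 and 18.64 in LiPS-57 and 13.64, 14.87 and 18.8 in LiPS-47. It too was highest in each LiPS-50 culture, and it rose by 1.70, 1.39 and 1.74 (adjusted p 3.13e-05, 0.000172 and 2.91e-05). Rpl10l, a testis copy of a ribosomal protein gene, rose by 0.79, 0.56 and 0.56. Upstream sequences were at hand for 28 of the 31 germ line genes, of which 9 held TCCCGC, 15 CACGTG and 19 at least one of them, beside 18.8%, 6.86% and 23.7% of 27025 genes. Their median was 14.5 CpG dinucleotides, where a gene with several upstream sequences counts with its highest. The median over all promoters given above counts each promoter on its own. Of the 10 Rhox and other genes inside the cluster, 7 had an upstream sequence, of which 0 held either motif, and the median was 2 CpG with a range from 0 to 8. Rhox6, Rhox8 and Rhox9 had no upstream sequence, so these values do not cover the promoters of Rhox6 and Rhox9. A match of letters is a description of the window and not a site.

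Rhox genes are also known from primordial germ cells and from the placenta, so markers of these cells were read in the same fit. Of 13 primordial germ cell genes, 5 rose and 1 fell against LiPS-45, 3 rose and 3 fell against LiPS-57, and 5 rose and 1 fell against LiPS-47. The shares over all genes were 9.59%, 9.32% and 9.84% higher and 9.10%, 8.59% and 8.44% lower. Prdm14, a regulator of germ cell fate and of pluripotency, rose by 0.69, 0.61 and 0.73. Kit, a receptor of germ cells, fell by 0.61, 0.66 and 0.53. Itgb3 rose by 0.38, 0.50 and 0.41 and Tfap2c by 0.23, 0.19 and 0.21. Against LiPS-45, Itgb3 had adjusted p 0.0559 without culture 3 of LiPS-45 and 0.0573 without culture 1 of LiPS-50. The Tfap2c calls against LiPS-57 and LiPS-47 were lost under median centring (adjusted p 0.127 and 0.0641) and with the lines fitted alone (0.0826 and 0.0888). The call against LiPS-57 was also lost with the replicate block (0.0511) and without any 1 culture of LiPS-57 or culture 1 or 2 of LiPS-50 (0.0664 to 0.0973). The call against LiPS-47 was also lost without culture 1 or 2 of LiPS-47 or of LiPS-50 (0.056 to 0.0682). Against LiPS-57, Dppa3 and Alpl fell by 0.32 and 0.25. Prdm1 rose by 0.37 and 0.36 and Ifitm3 by 0.27 and 0.33 against LiPS-45 and LiPS-47. The log2 of the list's summed intensities was 12.59 to 12.63 in LiPS-50 and 12.59 to 12.67 in LiPS-57. It was 12.46 to 12.48 in LiPS-45 and 12.42 to 12.48 in LiPS-47. In such a sum the brightest genes of a list weigh most.

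Of 22 trophectoderm and placenta genes, 8 rose in each of the 3 comparisons and 2, 1 and 4 fell, with medians of 0.21, 0.097 and 0.074, beside 9.59%, 9.32% and 9.84% of all genes higher and 9.10%, 8.59% and 8.44% lower. Ascl2, a transcription factor of the spongiotrophoblast, rose 2.65-, 2.41- and 2.40-fold. On the log2 scale Gata3 rose by 0.99, 1.14 and 1.19, Krt7 by 1.05, 1.04 and 0.82 and Plac1 by 0.85, 1.21 and 0.87. Eomes, which marks trophoblast stem cells and the primitive streak, fell by 1.55, 1.28 and 1.31. The keratin genes Krt8, Krt18 and Krt19 fell by 0.77, 0.60 and 0.51 against LiPS-47, and Krt8 by 0.38 against LiPS-45. The log2 of the list's summed intensities was 12.09 to 12.18 in LiPS-50, within the range over the other lines (11.89 to 12.57). Bright genes such as Krt8 (log2 mean 11.1 in LiPS-47) weigh most in this sum.

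Of 23 primitive endoderm genes, 8 rose in each comparison and 3, 1 and 2 fell, beside the same 9.59%, 9.32% and 9.84% of all genes higher and 9.10%, 8.59% and 8.44% lower. Against LiPS-45 the number called in either direction was 6 without culture 3 of LiPS-45 and 7 without culture 3 of LiPS-50. The log2 of the list's summed intensities was 13.04 to 13.23 in LiPS-50 against 12.68 to 12.94 elsewhere. Bright genes such as Sparc (log2 mean 11.2 in LiPS-47) weigh most in this sum. Pdgfra, a growth factor receptor that fibroblasts make too, rose by 1.00, 1.11 and 1.25, and Thbd, the thrombin receptor thrombomodulin, by 0.85, 0.79 and 1.04. Foxa2, a transcription factor of endoderm, fell by 1.28, 0.87 and 1.05. Lrp2 fell by 0.29 against LiPS-45 and by 0.32 against LiPS-47, and Lama1 by 0.32 against LiPS-45.

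Markers of fibroblasts and feeder cells moved with LiPS-50. Of 29 such genes, 25, 24 and 25 rose and 0 fell, with medians of 0.59, 0.62 and 0.75, beside 9.59%, 9.32% and 9.84% of all genes called higher. Decorin (Dcn) rose by 0.95, 0.86 and 1.17 and the collagen gene Col3a1 by 0.86, 0.84 and 1.04. The log2 of the list's summed intensities was 15.27 to 15.42 in LiPS-50, 14.85 to 15.08 in LiPS-45, 14.87 to 14.97 in LiPS-57 and 14.66 to 14.94 in LiPS-47. Of the 29 genes, 27 had a mean above the 40th percentile of probe sets. In such bulk samples a different number of cells of a type and a different amount of RNA per cell cannot be told apart.

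Over the 12 arrays the list's median level and the log2 values had an r of 0.788 for Rhox6 and 0.846 for Rhox9. Over the 9 arrays without LiPS-50 r was -0.332 and 0.118. LiPS-57, which was second highest for both Rhox genes, had a mean of this list median of 8.55 beside 8.54 in LiPS-45 and 8.33 in LiPS-47. The part of these cells in the LiPS-50 levels was not tested.

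The pluripotency markers fitted the labelled cell type in all lines. The log2 of the summed intensities of 20 genes lay between 14.73 and 14.82 in all 12 arrays. Of these genes 4 rose and 5 fell against LiPS-45 and against LiPS-57, and 6 rose and 3 fell against LiPS-47, with medians of 0.014, 0.014 and 0.12, beside 18.7%, 17.9% and 18.3% of all genes called in either direction. Against LiPS-47 the number called was 5 without culture 3 of LiPS-50 or with these lines fitted alone. All 20 genes had a mean above the 40th percentile. Of 12504 autosomal genes above that limit, 1452, 1412 and 1528 rose and 1723, 1644 and 1581 fell against LiPS-45, LiPS-57 and LiPS-47. Tbx3 rose by 0.62, 0.62 and 0.72 and Lin28a fell by 0.44, 0.51 and 0.48. Pou5f1, the gene of Oct4, ranged from 2951 to 3528 over all arrays, and its difference of -0.18 against LiPS-45 had adjusted p 0.0359, which was lost in 3 of the alternative fits and without culture 1 or 3 of LiPS-45, any culture of LiPS-50 or culture 3 of LiPS-57 (0.0521 to 0.116).

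**Figure D3:**
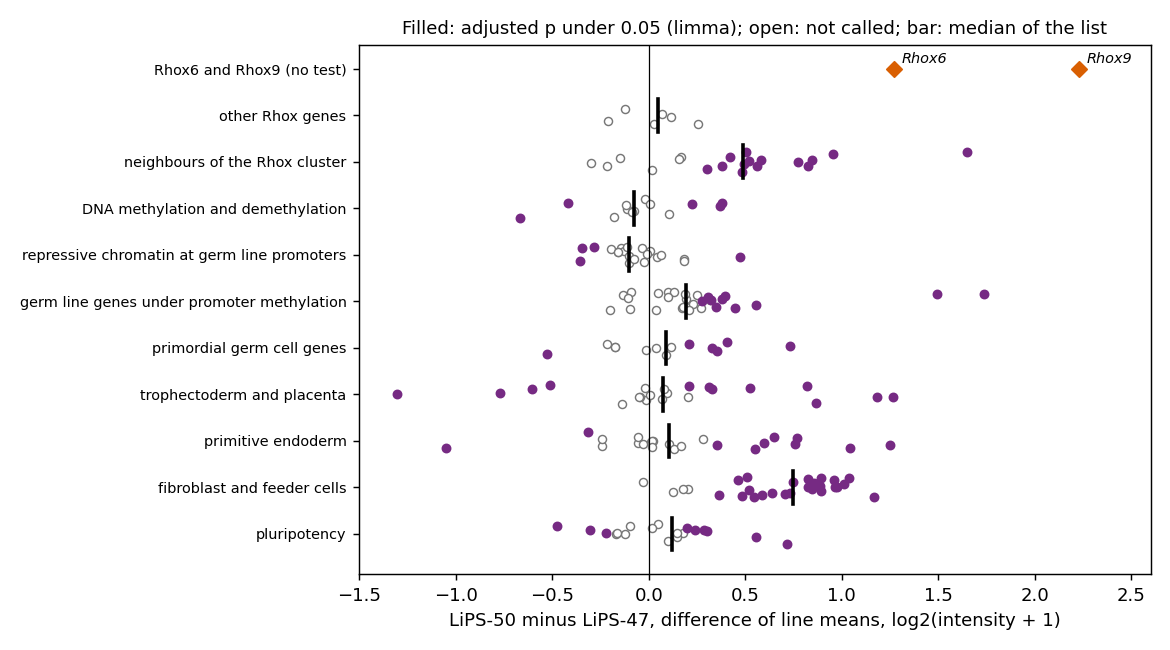
Difference between LiPS-50 and LiPS-47, the lines without competence, for each gene of the lists on the log2(intensity + 1) scale. Filled points passed an adjusted p of 0.05 (limma), open points did not, bars are list medians, and Rhox6 and Rhox9 are drawn without a test at 1.27 and 2.23. The fibroblast list and the neighbours of the cluster have the medians farthest above 0, at 0.75 and 0.49.

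Genes whose profile was most like that of Rhox6 or Rhox9 were named by Pearson r of log2 values over the 12 arrays, among 1230 genes above the 40th percentile whose line means spanned at least 0.5. The closest to Rhox9 were Hsf2bp (r = 0.979), Pramel13 (0.977), Fabp3 (0.977), Gpat3 (0.975) and Hccs (0.975). The closest to Rhox6 were Gpat3 (0.978), Septin1 (0.971), Pramel13 (0.969), Hsf2bp (0.968) and Jade3 (0.965). Hsf2bp, Pramel13 and Gpat3 were on both lists.

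These genes repeated the order of the lines. The log2 means of Hsf2bp were 8.71, 8.88, 9.09 and 9.76 in LiPS-45, LiPS-47, LiPS-57 and LiPS-50. Those of Pramel13, a gene of the Prame-like family, were 6.90, 7.01, 7.17 and 7.66, and those of Gpat3, an enzyme of glycerolipid synthesis, were 6.43, 6.55, 6.66 and 7.56. Without LiPS-50, r over 9 arrays was 0.828, 0.854 and 0.820 with Rhox9 and 0.872, 0.903 and 0.940 with Rhox6. These 9 arrays were among those used to pick the genes. The shared order of the lines and these r thus describe the choice and support nothing. Hccs and Jade3 lie on the X chromosome, and the other 5 on autosomes. Of the 6 with an upstream sequence, 4, with Hsf2bp among them, held TCCCGC and 0 held CACGTG, beside 18.8% and 6.86% of all genes with a promoter. Their median was 18 CpG dinucleotides, beside 6 over all promoters. These few genes were picked by their profile in these arrays, and the share was not tested.

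The opposite profile was led by Epb41l5 (r = -0.981), Upp1 (-0.976) and Foxa2 (-0.976) for Rhox9, and by Ndufaf6 (-0.966), Wasf1 (-0.963) and Nefl (-0.962) for Rhox6. Foxa2 had log2 means of 6.76, 6.53, 6.35 and 5.48 in LiPS-45, LiPS-47, LiPS-57 and LiPS-50, the reverse of the Rhox order. Nefl, a neurofilament gene, had 9.54, 9.39, 9.26 and 8.25. All 12 points of each r come from 4 lines, and the profile of LiPS-50 weighs most in it.

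**Figure D4:**
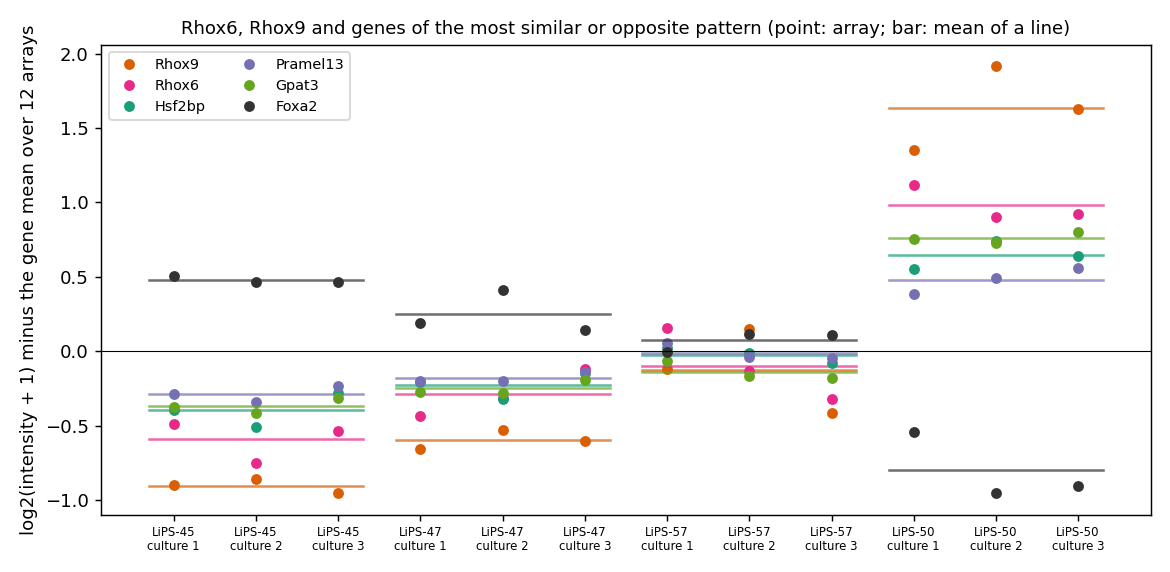
Log2(intensity + 1) of Rhox6, Rhox9, 3 genes of similar profile and Foxa2, each minus its mean over the 12 arrays. Points are arrays and bars the means of a line. Rhox6, Rhox9, Hsf2bp, Pramel13 and Gpat3 rise in the order LiPS-45, LiPS-47, LiPS-57 and LiPS-50, whereas Foxa2 falls.

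At the level of the whole array, 4771, 4527 and 4568 of the probe sets were called between LiPS-50 and LiPS-45, LiPS-57 and LiPS-47 (16.5%, 15.6% and 15.8%). The other pairs gave 77 between LiPS-57 and LiPS-45 (0.266%), 18 between LiPS-47 and LiPS-45 (0.0622%) and 46 between LiPS-57 and LiPS-47 (0.159%). These small counts moved with single cultures: they ranged from 41 to 70, from 6 to 44 and from 23 to 61 when 1 culture was left out. The highest of the second, 44, came without culture 3 of LiPS-47, and that count was 3 with the lines fitted alone and 50 with dim probe sets removed. Between LiPS-50 and LiPS-45, 3106 probe sets were called without culture 3 of LiPS-45. In each of these fits LiPS-50 differed from the other lines in more probe sets than they differed among themselves. Of the calls with LiPS-50, 49.6%, 52.2% and 53.7% were higher there, and 34.8%, 37.8% and 43.7% when each array was centred on its median. That centring moved the median of all probe sets by at most 0.0512.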

How the data were processed

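Total RNA of 12 cultures was amplified as whole-transcript cDNA and hybridised to 1-colour Affymetrix arrays, 1 per culture, per the labels' protocols. The authors deposited 1 linear intensity for each probe set on each array. GCOS 1.4 is named in the submitters' processing notes. How probes were summarised, corrected for background and normalized is not given in the sources used here. Then the authors' intensities were turned into log2(value + 1) without rescaling, since array medians differed by at most 0.0833. Of 35556 probe sets, 6617 outside the numbering of the array annotation were treated as controls and left out. A gene is represented by its brightest probe set, and symbols follow RefSeq (GRCm38.p6), which matched 19856 genes. The number of arrays limits the precision.

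Pairs of lines were tested with limma 3.58.1 in R 4.3.3 (4 line means over 12 arrays, two-sided, Benjamini-Hochberg adjustment over 28939 probe sets, threshold 0.05), and competence with a random block for the line (duplicateCorrelation, with a consensus of 0.183). Rhox6 and Rhox9 were not tested. The members and the lists were chosen with earlier results of these data known. The rule for naming takes the other Rhox genes, their neighbours, up to 4 genes of smallest p per list (all of short lists), and the 5 most and 3 least similar profiles. Besides these, Dnmt1, Uhrf1, Uhrf2, Dnmt3l, Mbd2, Ezh2, Atrx, Rpl10l, Kit, Itgb3, Tfap2c, Btg1b, Btg1c, Dcn, Col3a1, Tbx3, Lin28a, Trim28, Ehmt1, Dppa3, Alpl, Prdm1, Ifitm3, Krt8, Krt18, Krt19, Lrp2 and Lama1 were named after their values were seen where the rule did not take them. P-values reflect only how cultures of 1 line vary. Culture numbers did not pair the lines: 18 pairs of equal number had deviations correlated from -0.169 to 0.121, with 4 over 0.1. Alternatives were median centring, quantile normalization, pseudocounts of 0 and 16, removal of dim probe sets (below the 40th percentile), control probe sets included, 2 lines fitted alone, the replicate number as a block, and each culture left out. The code was tested on simulated data.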

Additional observations from a re-analysis of the deposited data

How the results depend on the processing

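The differences of Rhox6 and Rhox9 kept their direction in every alternative run, and 1 of them moved by more than the spread between cultures, Rhox9 between LiPS-50 and LiPS-45 with a pseudocount of 16 (2.29). Leaving out 1 culture gave 2.40 to 2.68 for that difference and 0.061 to 0.30 for Rhox6 between LiPS-57 and LiPS-47. The named genes kept their sign. Those not followed were Btg1b, Btg1c, Rhox10 to Rhox13, Yy1, and the genes given only where they were called (Trim28, Ehmt1, Dppa3, Alpl, Prdm1, Ifitm3, Krt8, Krt18, Krt19, Lrp2 and Lama1). Germ line genes called fell to 6 against LiPS-45 with median centring, quantile normalization or dim probe sets removed. Against LiPS-47 they were 6 with median centring and 5 with quantile normalization or with controls included, and against LiPS-57 they were 6 with dim probe sets removed. Removal of dim probe sets kept only 14 of the 31 germ line genes in the fit, so fewer could be called. With the replicate block, 6 germ line genes were called against LiPS-47 and 25 probe sets between LiPS-57 and LiPS-47, against 10 and 46 without it; the numbers do not pair the cultures. Between LiPS-47 and LiPS-45 the probe sets called were 49 with a pseudocount of 16, 50 with dim probe sets removed and 3 with these lines fitted alone. Between LiPS-57 and LiPS-47 they were 28 with controls included and 19 alone, and between LiPS-57 and LiPS-45 they were 49 alone. Fitted alone, 5 repressive chromatin genes were called against LiPS-45 and 5 pluripotency genes against LiPS-47. With dim probe sets removed 1 other Rhox gene, Rhox1, passed against LiPS-57. Competence without the line block gave 1789 probe sets, a count that treats cultures as replicates of competence and cannot show a difference by it. Without 1 culture the probe sets called ranged from 6 to 44 between LiPS-47 and LiPS-45, 3106 to 4802 between LiPS-50 and LiPS-45, 41 to 70 between LiPS-57 and LiPS-45 and 23 to 61 between LiPS-57 and LiPS-47. List counts then ranged from 6 to 11 (germ line) and 3 to 7 (repressive chromatin) and 6 to 11 (primitive endoderm) against LiPS-45, 4 to 10 (germ line) and 5 to 9 (pluripotency) against LiPS-47, and 0 to 1 (other Rhox) against LiPS-57. The causes were not tested, apart from the smaller number of tests or arrays in the fits that leave some out. Averaging several probe sets of a gene was not run for Rhox6 and Rhox9, which have 1 each.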
